A study of Homo sapiens with 4 samples.

Results

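The genes described here carry and control signalling by transforming growth factor beta (TGF-beta), activins and bone morphogenetic proteins (BMPs): 12 ligands, 4 latent TGF-beta binding proteins, 6 antagonists, 12 receptors or receptor-like proteins, 8 SMAD proteins, 4 regulators of SMADs and 5 targets. They were taken by symbol from the platform's annotation. Of 51 named genes 50 had a probe (80 probes), among 19090 genes in all; BMPR1A was not analysed here. RNA was read on 4 microarrays, 1 dye each, from Huh7, an established human hepatocellular carcinoma cell line. The control group was 2 arrays of Huh7 cells with a stably expressed scramble short hairpin RNA (shRNA), and the other group was 2 arrays of Huh7 cells with a stably expressed shRNA directed at ACOT12, a cytosolic acetyl-CoA thioesterase. Both lines had been selected with puromycin and were otherwise described as untreated. The comparison asks which genes lie downstream of ACOT12. Whether the lines were pools or clones, and whether the arrays of a group were separate cultures, is not given in the labels, so every p-value below covers only the spread between these arrays, which may be technical.

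Ligands of this family are secreted dimers that bring type II and type I receptor kinases together at the cell surface. TGF-beta and activin receptors then phosphorylate SMAD2 and SMAD3, BMP receptors phosphorylate SMAD1, SMAD5 and SMAD9, and both sets enter the nucleus with SMAD4. In liver, TGF-beta limits the growth of hepatocytes and can drive an epithelial-to-mesenchymal transition in carcinoma cells, while BMP signals control the iron hormone hepcidin.

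Some of the members are themselves switched on by the pathway, among them ID2, TGFBI and BAMBI, and their upstream sequences are shown because they are the bright readouts whose values are given below. The RefSeq table (GRCh38.p14) held 45 of the members, with 77 start sites. Each line gives the 250 bases before the start site on the plus strand, at chr2:8681806-8682055 for ID2, chr5:136028738-136028987 for TGFBI and chr10:28677271-28677520 for BAMBI, 5′ to 3′, with matches to GGCGCC (letters bound by SMAD1 and SMAD5) or CAGACA (letters bound by SMAD3 and SMAD4) in capitals, searched on both strands:
ID2: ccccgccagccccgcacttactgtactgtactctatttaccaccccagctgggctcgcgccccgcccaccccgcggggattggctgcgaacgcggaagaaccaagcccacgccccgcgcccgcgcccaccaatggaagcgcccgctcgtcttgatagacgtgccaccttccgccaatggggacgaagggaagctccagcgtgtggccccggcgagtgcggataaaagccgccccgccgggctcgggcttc
TGFBI: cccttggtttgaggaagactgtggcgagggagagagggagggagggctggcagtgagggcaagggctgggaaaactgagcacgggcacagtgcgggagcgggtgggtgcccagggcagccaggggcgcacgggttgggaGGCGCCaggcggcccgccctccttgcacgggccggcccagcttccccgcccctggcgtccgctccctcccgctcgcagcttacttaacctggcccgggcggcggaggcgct
BAMBI: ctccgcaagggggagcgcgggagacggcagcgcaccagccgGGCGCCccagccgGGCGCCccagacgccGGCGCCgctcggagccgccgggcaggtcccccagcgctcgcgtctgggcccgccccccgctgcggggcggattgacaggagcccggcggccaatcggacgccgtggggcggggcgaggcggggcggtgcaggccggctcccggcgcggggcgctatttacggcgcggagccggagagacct
BAMBI held GGCGCC 3 times, starting 209, 196 and 181 bases before the start site, TGFBI held it once, at 111 bases, and ID2 had no match; CAGACA had no match in these windows, so no matches overlapped. GGCGCC was present in 16.4% of the 35116 windows of the whole table and in 27.3% of the members' 77 windows, and CAGACA in 13.6% and 16.9%. A match describes the letters only and is no evidence of binding.

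None of the 50 members passed an adjusted p of 0.05 between shACOT12 and scramble cells (limma with Benjamini-Hochberg adjustment across the 19090 genes; adjusted p = 1 for every member), against 0.00524% of all genes. Their log2 fold changes, shACOT12 minus scramble throughout, lay between -0.62 for SMAD6 and 0.96 for INHBA. The median over the members was -0.0074, and over all genes 0.0078. At an unadjusted p under 0.05 limma counted 0 of 50 members, where 1.76% of all genes passed, and 0 of 50 members differed at least 2-fold (a log2 fold change of 1 or more in size), where 1.59% of all genes did (0.760% higher and 0.828% lower). The 95% confidence interval lay wholly inside a 2-fold change in either direction for 32 of 50 members (64.0%; 59.7% of all genes), so for the other 18 a change of that size was not excluded by these arrays. Members whose arrays did not overlap, meaning that both shACOT12 values lay on the same side of both scramble values, numbered 15 of 50, where 21.5% of all genes did so: 8 were higher in shACOT12 cells (11.5% of all genes) and 7 lower (10.0%). For exchangeable arrays the probability of such a separation is 0.333, the smallest two-sided permutation p possible here. A lack of overlap is thus no sign of change by itself. The members' share was above that of all genes here. It was below on values as deposited (9 of 50, against 19.2% of all genes) and with 75th percentile scaling (8 of 50, against 19.7%). It stayed above with cyclic loess (14 of 50, against 21.7%) and with the floor at the 20th percentile (15 of 50, against 17.5%). The same held with the dimmest 30% left out (12 of 37, against 21.9%) and with a gene's probes averaged (17 of 50, against 21.8%). By probe it was 27 of 80, against 21.2% of all named probes. The difference exceeded both within-group gaps for 10 of 50 members and 12.5% of all genes. In cells measured in bulk, less RNA per cell and fewer expressing cells cannot be told apart.

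**Figure D1:**
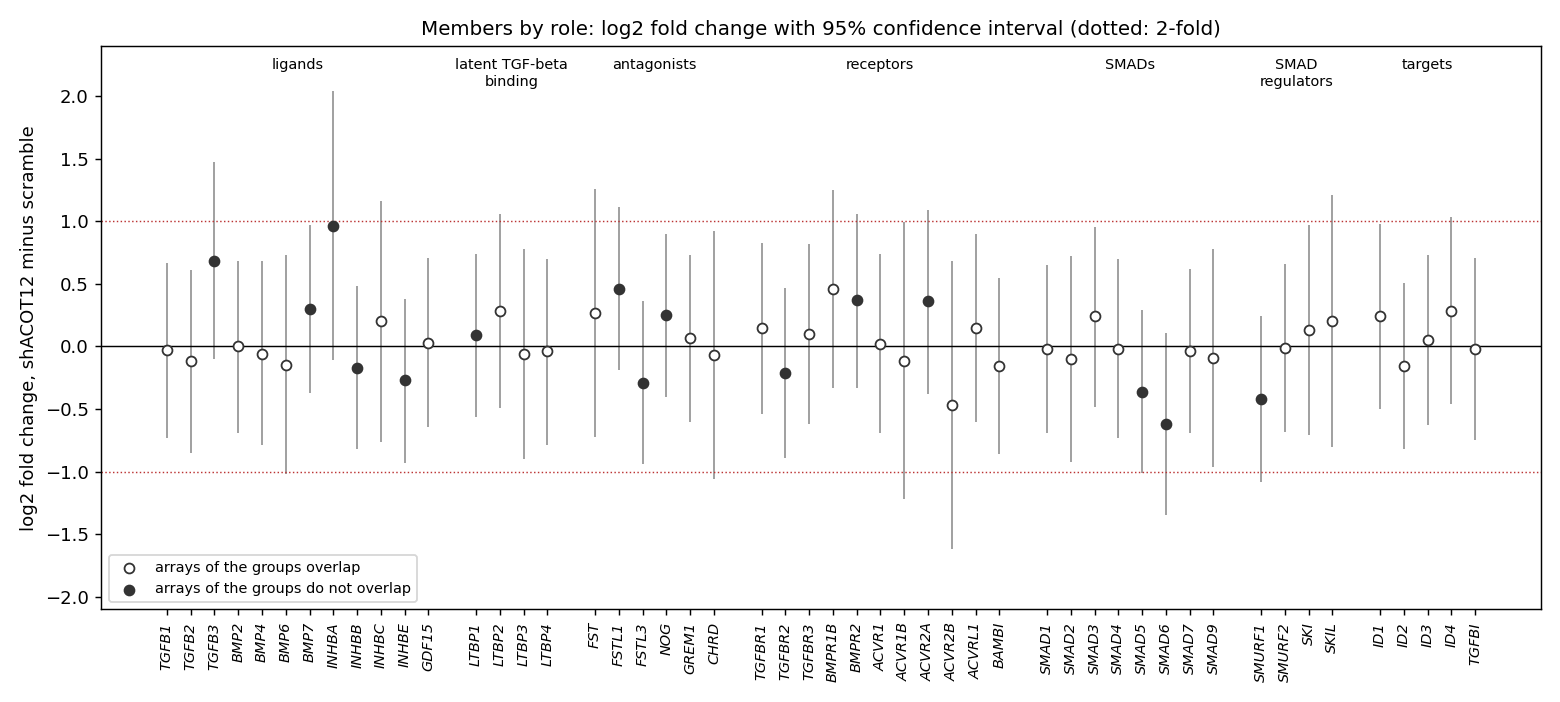
Log2 fold change (vertical axis, shACOT12 minus scramble) of the 50 measured members, grouped by role along the horizontal axis, with 95% confidence intervals from limma as bars; filled points are the 15 members whose arrays did not overlap and dotted lines mark 2-fold. Every interval includes 0, and the points run from -0.62 (SMAD6) to 0.96 (INHBA).

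With 2 arrays per group the smallest two-sided p of an exact permutation test is 0.333, and the number of arrays limits the precision of every value. ACOT12 itself read 8.28 and 7.47 in scramble and 7.58 and 7.37 in shACOT12 cells (log2 intensity after quantile normalization, the scale used throughout), a log2 difference of -0.40 (95% confidence interval -1.24 to 0.44, adjusted p = 1 in limma) that was 0.0039 without scramble replicate 1. The submitters' design text says that the lines had been checked by western blotting; a knockdown was not measurable on these arrays, and the groups are called by their labels. Hepatocyte markers were bright, 11 of 12 lying in the highest 10% of genes, KRT8 being the exception, while 1 of 8 fibroblast, 0 of 6 endothelial and 2 of 5 leukocyte markers reached the median. Of the leukocyte markers, LYZ (14.45 to 14.92) and CD14 (13.61 to 14.15) were bright and PTPRC, the defining one, was dim at 5.39 to 6.09. The arrays' median intensities were 327 to 451 (deposited scale). Over the 50 members, paired arrays differed with an SD of 0.508 for scramble, 0.428 for shACOT12 and 0.308 to 0.544 for the 4 pairings across groups, lowest between the arrays numbered 1.

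Among the ligands, 5 of 12 had a fold change above 0 and the median was -0.02. BMP2, which signals through SMAD1, SMAD5 and SMAD9, was the brightest ligand probe and read 14.79 and 14.44 in scramble and 14.55 and 14.67 in shACOT12 cells. These values interleaved, and the group means were both 14.61, while the second BMP2 probe gave -0.37 without overlap. INHBE, the activin E subunit made mainly by liver, read 11.98 and 11.94 in scramble and 11.79 and 11.58 in shACOT12 cells, a log2 difference of -0.27 (SE 0.28). Its groups did not overlap, by a gap of 0.15. INHBC, the other liver-restricted activin subunit, spread over 5.69 to 6.78 within the scramble group alone, which contained both shACOT12 values.

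TGFB3, a ligand that binds TGFBR2, had the largest difference among ligands outside the dimmest genes. It read 11.20 and 11.37 in scramble and 11.63 and 12.30 in shACOT12 cells, a log2 difference of 0.68 (95% confidence interval -0.10 to 1.47, unadjusted p = 0.0792 and adjusted p = 1, limma). The groups did not overlap, but shACOT12 replicate 2 stood well above the other 3 arrays, and the fold change was 0.34 without it and 1.02 without shACOT12 replicate 1. TGFB1 stood at -0.03 (95% confidence interval -0.73 to 0.67) and TGFB2 at -0.12 (-0.85 to 0.61), both with overlapping groups on dim probes (17.9th and 29.9th percentile of genes by brightness), and the second TGFB2 probe gave 0.24. The difference between ligands was not tested.

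INHBA, the subunit of activin A, had the largest fold change of all members, 0.96 (95% confidence interval -0.11 to 2.04, unadjusted p = 0.0723 and adjusted p = 1, limma), from values of 5.32 and 4.70 in scramble and 6.56 and 5.39 in shACOT12 cells. The nearest arrays of the groups were 0.07 apart, and the probe lay in the 8.9th percentile of genes, where deposited intensities were 22.9 to 72.2. Without shACOT12 replicate 1 the fold change was 0.38 and without shACOT12 replicate 2 it was 1.54. A second, dimmer INHBA probe gave 0.53 with overlapping groups. With every intensity under the 20th percentile raised to it, INHBA lay at that floor on all arrays and gave no fold change. INHBB, the activin B subunit, read 8.24 and 8.31 in scramble and 8.18 and 8.04 in shACOT12 cells, not overlapping by 0.06.

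The remaining ligands were dim or level. BMP7, an epithelial BMP, read 6.48 and 6.59 in scramble and 6.70 and 6.97 in shACOT12 cells without overlap, a log2 fold change of 0.30. A second BMP7 probe gave 1.55, but it lay in the lowest 0.9% of probes and its deposited intensities were 17.6 and 0 in scramble and 3.39 and 44.0 in shACOT12 cells, so the groups overlapped there. BMP4, BMP6 and GDF15 (a stress-induced distant member of the family) had fold changes of -0.06, -0.15 and 0.03 with overlapping groups.

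Latent TGF-beta binding proteins hold secreted TGF-beta in the matrix until it is released. LTBP1 read 11.17 and 11.18 in scramble and 11.19 and 11.34 in shACOT12 cells, a log2 difference of 0.09 (SE 0.27). The groups did not overlap, by 0.01, and the difference was 0.02 without shACOT12 replicate 2. LTBP2, which binds fibrillin rather than TGF-beta itself, read 9.68 and 9.55 in scramble and 9.57 and 10.22 in shACOT12 cells. Its difference of 0.28 was -0.04 without shACOT12 replicate 2, while its second probe, with 7.20 and 7.32 in scramble and 7.50 and 7.42 in shACOT12 cells, gave 0.20 without overlap. LTBP3 and LTBP4 stood at -0.06 and -0.04.

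FST (follistatin), which sequesters activins, was the brightest antagonist probe. It read 15.43 and 14.48 in scramble cells (replicates 1 and 2) and 15.56 and 14.90 in shACOT12 cells (likewise). The arrays thus paired by replicate number and not by shRNA, and a second probe did the same with 10.84 and 9.46 in scramble and 10.84 and 10.03 in shACOT12 cells. The fold change of 0.27 was smaller than either group's SD (0.67 and 0.47, n = 2 each), and was -0.20 without scramble replicate 2 and -0.06 without shACOT12 replicate 1. FSTL3, a follistatin relative that also binds activins, read 8.63 and 8.56 in scramble and 8.23 and 8.38 in shACOT12 cells, -0.29 on the log2 fold scale without overlap.

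FSTL1, a secreted glycoprotein of the follistatin-like family, read 7.90 and 7.96 in scramble and 8.45 and 8.33 in shACOT12 cells. Its groups were the farthest apart among the 15 that did not overlap, by 0.37, at a log2 difference of 0.46 (SE 0.27, unadjusted p = 0.136 and adjusted p = 1, limma). NOG (noggin), a BMP trap, read 7.03 and 7.19 against 7.31 and 7.41, a difference of 0.25 without overlap. CHRD (chordin), another BMP trap, read 8.18 and 9.33 in scramble and 8.71 and 8.66 in shACOT12 cells. The scramble replicates of CHRD were more than 2-fold apart and enclosed both shACOT12 values; its fold change was 0.50 without scramble replicate 2 and -0.64 without scramble replicate 1. GREM1 (gremlin 1) stood at 0.07.

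**Figure D2:**
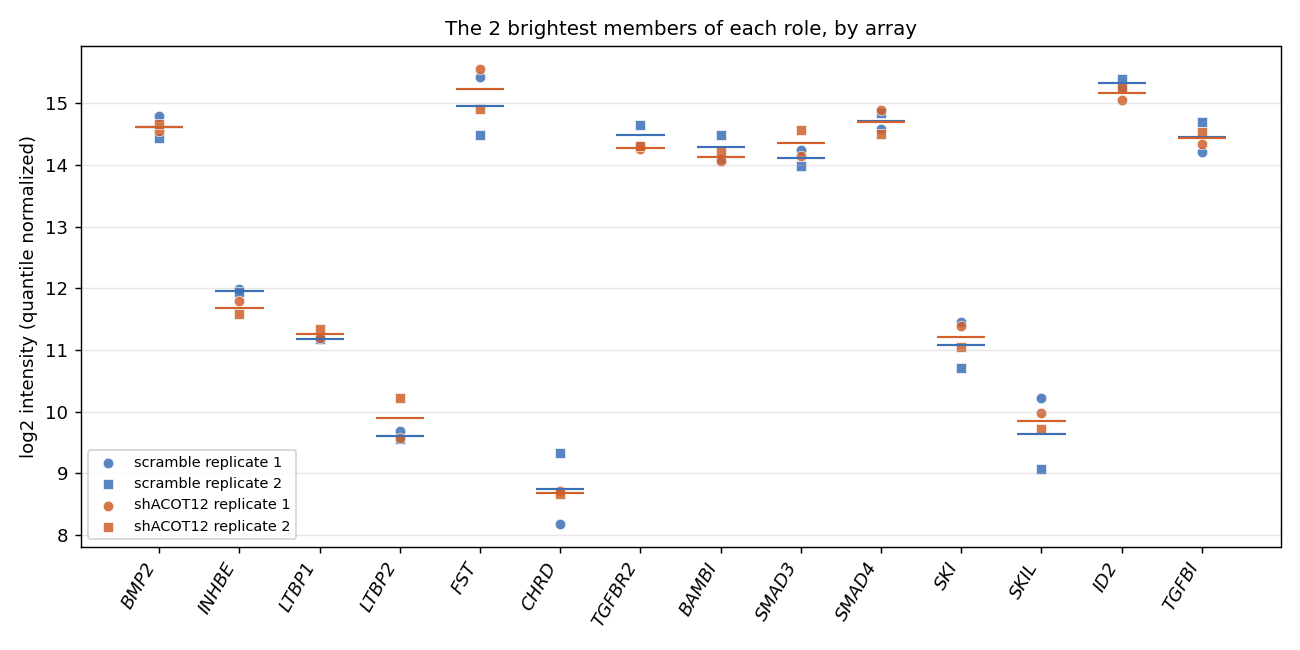
Log2 intensity (vertical axis, quantile normalized) of the 2 brightest members of each role (horizontal axis) on the 4 arrays; circles are replicate 1, squares replicate 2, horizontal lines the group means. The groups overlap for all of these genes except INHBE, LTBP1 and TGFBR2, and for FST the arrays pair by replicate number.

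Of the receptors, 7 of 11 had a fold change above 0, with a median of 0.10. TGFBR2, the type II receptor for TGF-beta, read 14.31 and 14.65 in scramble and 14.25 and 14.30 in shACOT12 cells, a log2 difference of -0.21 (SE 0.29) with the nearest arrays 0.01 apart. It was -0.04 without scramble replicate 2, and the other probe gave 0.15, so the probes differed in sign. TGFBR1, the type I partner, stood at 0.15 and TGFBR3 (betaglycan, a co-receptor) at 0.10, both with overlapping groups on the brightest probe. The second probes gave 0.11 for TGFBR1 with overlap and 0.18 for TGFBR3 without it.

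BMPR2, the type II BMP receptor, read 13.35 and 12.95 in scramble and 13.53 and 13.51 in shACOT12 cells, a log2 difference of 0.37 (SE 0.29). The groups did not overlap, but a second, dimmer probe gave -0.03 and the difference was 0.16 without scramble replicate 2. ACVR2A, a type II receptor for activins and some BMPs, read 12.90 and 12.39 in scramble and 13.08 and 12.92 in shACOT12 cells, a log2 difference of 0.36 with the nearest arrays 0.02 apart. The second probe gave 0.38, and without scramble replicate 2 the difference of the first was 0.10. ACVR2B, its close relative, read 12.46 and 13.81 in scramble and 12.39 and 12.94 in shACOT12 cells. Scramble replicate 2 stood above the other 3 arrays and more than 2-fold above scramble replicate 1, the difference was -0.47 (SE 0.48), and the second probe gave 0.08.

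BAMBI, a decoy receptor without kinase activity and itself a target of the pathway, read 14.09 and 14.49 in scramble and 14.06 and 14.21 in shACOT12 cells. The groups overlapped, with a difference of -0.16 (SE 0.29) that was 0.05 without scramble replicate 2. BMPR1B, a type I BMP receptor, stood at 0.46 with overlapping groups and -0.04 from its second probe. The type I receptors ACVR1, ACVR1B and ACVRL1 stood at 0.02, -0.12 and 0.15; ACVR1B read 7.68 and 6.39 on the shACOT12 arrays, a spread of more than 2-fold within the group. Their second, dimmer probes gave 0.37, 0.46 and 0.48, that of ACVR1B without overlap and opposite in sign to its brighter one.

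SMAD proteins had fold changes below 0 for 7 of 8 members, with a median of -0.06; 48.0% of the members and 51.4% of all genes were above 0. This count was 3 of 8 below 0 without scramble replicate 2, 4 of 8 without shACOT12 replicate 2 and 6 of 8 without either of the other arrays. With 75th percentile scaling it was 5 of 8, where 55.9% of all genes were above 0. SMAD6, an inhibitory SMAD that blocks BMP signalling and is induced by it, had the lowest fold change of all members. It read 11.18 and 11.56 in scramble and 10.94 and 10.55 in shACOT12 cells, a log2 difference of -0.62 (95% confidence interval -1.35 to 0.11, unadjusted p = 0.0833 and adjusted p = 1, limma). The groups were 0.24 apart, and the fold change stayed between -0.82 and -0.43 when each array was left out in turn. SMAD7, the inhibitory SMAD that blocks TGF-beta and activin receptors as well, read 9.78 and 9.68 in scramble and 9.76 and 9.62 in shACOT12 cells, a difference of -0.04.

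SMAD5, a BMP-responsive SMAD, read 12.51 and 12.46 in scramble and 12.06 and 12.18 in shACOT12 cells, a log2 difference of -0.36 (SE 0.27). Its groups were 0.28 apart, but its second, dimmer probe read 10.91 and 10.48 in scramble and 10.62 and 10.77 in shACOT12 cells, with overlap. SMAD4, the shared partner, read 14.58 and 14.84 in scramble and 14.89 and 14.50 in shACOT12 cells, with overlapping groups and a difference of -0.02 that took the opposite sign with values as deposited or with 75th percentile scaling. Its second probe read 11.42 and 12.05 in scramble and 11.35 and 11.21 in shACOT12 cells, -0.46 without overlap. SMAD3, a TGF-beta-responsive SMAD, read 14.24 and 13.99 in scramble and 14.14 and 14.56 in shACOT12 cells, and its 3 probes gave 0.12, 0.13 and 0.24; the last was 0.02 without shACOT12 replicate 2. SMAD1, SMAD2 and SMAD9 stood at -0.02, -0.10 and -0.09, each with overlapping groups on the brightest probe. Dimmer probes did not overlap at 0.18 for SMAD1 and at 0.19 and -0.22 for SMAD2.

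SMURF1, a ubiquitin ligase that degrades BMP-responsive SMADs, read 7.52 and 7.75 in scramble and 7.17 and 7.27 in shACOT12 cells. The groups were 0.25 apart with a log2 fold change of -0.42 (SE 0.28), and its dimmer probe gave -0.07. SMURF2 stood at -0.01. SKI and SKIL are nuclear repressors of SMAD complexes. SKIL read 10.22 and 9.07 in scramble and 9.98 and 9.72 in shACOT12 cells, and SKI read 11.45 and 10.71 in scramble and 11.38 and 11.04 in shACOT12 cells. Both shACOT12 values of each lay between the scramble values, and without scramble replicate 2 the fold changes of SKIL and SKI went from 0.20 and 0.13 to -0.37 and -0.24.

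**Figure D3:**
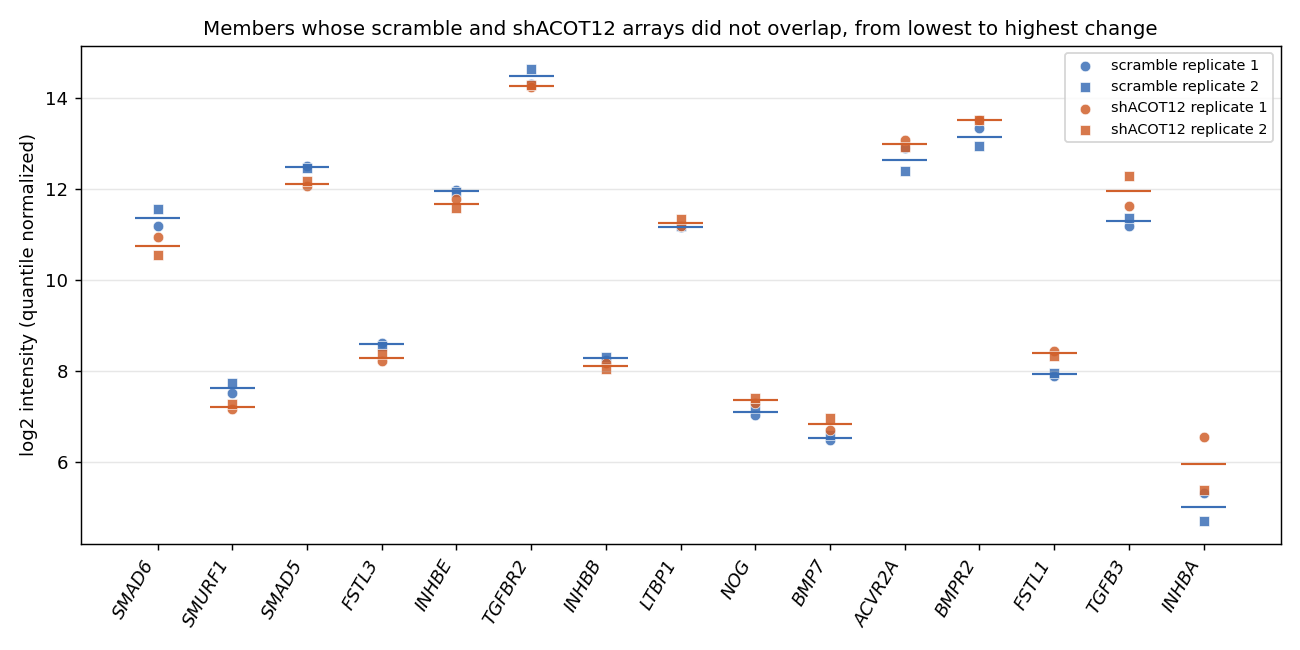
Log2 intensity (vertical axis, quantile normalized) of the 15 members whose scramble and shACOT12 arrays did not overlap, ordered by fold change along the horizontal axis; circles are replicate 1, squares replicate 2, horizontal lines group means. The gaps between the nearest arrays of the groups run from 0.01 (LTBP1, TGFBR2) to 0.37 (FSTL1).

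Of the targets, 0 of 5 had arrays that did not overlap on their brightest probe, where 21.5% of all genes did so. ID2, one of the inhibitors of DNA binding that BMPs induce, was the brightest and read 15.24 and 15.39 in scramble and 15.06 and 15.26 in shACOT12 cells, a log2 difference of -0.16 (SE 0.28). Its 4 probes gave -0.46 to -0.08, and the second brightest, with 14.74 and 15.26 in scramble and 14.40 and 14.67 in shACOT12 cells, did not overlap. ID1, ID3 and ID4, relatives with the same function, stood at 0.24, 0.05 and 0.28, and the second ID3 probe gave 0.25 without overlap. TGFBI, a matrix protein induced by TGF-beta, read 14.21 and 14.70 in scramble and 14.34 and 14.54 in shACOT12 cells, a difference of -0.02 whose sign depended on the scaling.

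Of the 26 members read by several probes, 17 had the same sign of change on all of them and 9 did not, and for 0 members were probes of opposite sign both at or beyond 0.3. Of the 30 probes other than the brightest of their gene, 12 did not overlap between the groups, 8 higher and 4 lower, and by probe the count was 27 of 80, where 21.2% of all named probes did so. At the level of probes, 0 of 80 passed an unadjusted p of 0.05 in limma (1.79% of all named probes) and 0 passed after adjustment.

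**Figure D4:**
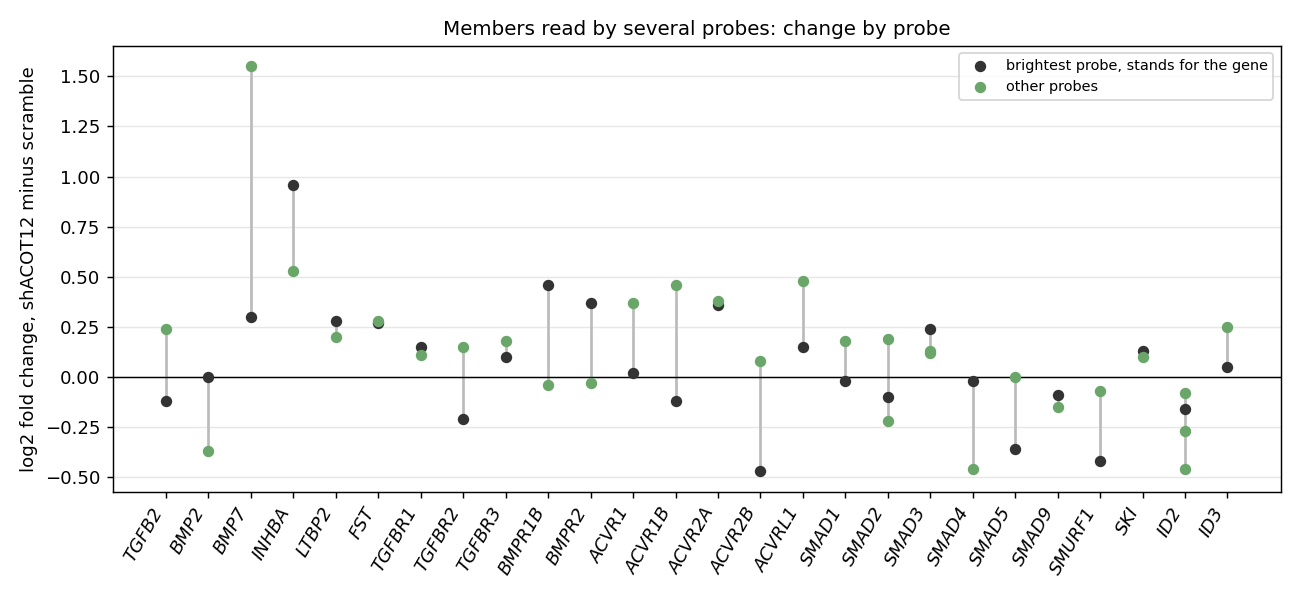
Log2 fold change (vertical axis, shACOT12 minus scramble) from each probe of the 26 members with several probes (horizontal axis); black points are the brightest probe, which stands for the gene, green points the others. BMP7 has the widest range, 0.30 to 1.55, its upper point from one of the dimmest probes.

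Beyond the members, 99 further genes of the pathway were measured, and 0 passed the adjusted threshold. At an unadjusted p under 0.05, limma counted 6 of 99 (6.06%), 4 higher and 2 lower, against 1.76% of all genes. Over all genes 336 were under this threshold, where 954 would be expected if no gene had changed. The list was chosen with earlier results known, and its share was not tested against that of all genes. FBN1, fibrillin 1, the microfibril protein that anchors latent TGF-beta complexes, read 12.14 and 12.09 in scramble and 13.21 and 12.92 in shACOT12 cells, a log2 difference of 0.95 (95% confidence interval 0.28 to 1.62, adjusted p = 1), with 0.69 from its dimmer probe. LEFTY1, an inhibitor of NODAL, read 9.73 and 9.96 in scramble and 9.16 and 8.53 in shACOT12 cells, a log2 difference of -1.0 (SE 0.33). Its sequence is close to that of LEFTY2, so that a probe may not tell them apart. The separate LEFTY2 probe was dim and differed from it, at 5.20 to 5.54 with a fold change of 0.0014. Cross-reaction of the probes was not tested.

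HAMP, hepcidin, the BMP-controlled iron hormone of the liver, read 6.67 and 6.97 in scramble and 5.73 and 6.20 in shACOT12 cells, a log2 difference of -0.85 (SE 0.31, adjusted p = 1), from a probe in the 18.7th percentile of genes. NBL1, a BMP antagonist, read 10.76 and 9.89 against 11.26 and 11.13, a log2 difference of 0.88 that was 0.44 without scramble replicate 2. Of its 6 probes, the second brightest gave 0.98 without overlap. The dimmer ones (15.2th to 39.7th percentile of probes) gave -0.21 to 0.17. BMP5 stood at 0.78, and BMP10 at 1.65 in the lowest 1.1% of genes; with low values raised to the 20th percentile BMP10 gave no fold change. For all 6 the groups did not overlap, as for 23 of 99 pathway genes (23.2%) and 21.5% of all genes.

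Genes of TGF-beta storage and activation (fibrillins, integrins, thrombospondin 1, anchoring proteins and proteases) had fold changes above 0 for 10 of 10, against 51.4% of all genes, with a median of 0.23, FBN1 included. This count was 7 to 9 of 10 when each array was left out in turn. The fold changes ran from 0.08 to 0.95. For 4 of these 10 genes the groups did not overlap, where 21.5% of all genes did so. Of the other lists, antagonists had 10 of 13 above 0, further ligands 10 of 21, co-receptors and other receptors 4 of 9, SMAD partners 10 of 21, TAK1 pathway genes 3 of 4, BMP targets 3 of 7 and TGF-beta targets 4 of 14. The count of these antagonists above 0 was 6 to 9 of 13 when each array was left out in turn.

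Among the 14 TGF-beta targets, 5 stood at least 0.5 higher on scramble replicate 2 than on any other array: CCN2, a matricellular growth factor, KLF10 and SNAI1, transcription factors induced early by TGF-beta, JUNB, a subunit of the AP-1 factor, and BHLHE40. KLF10 read 12.85 there, and 11.76, 11.85 and 11.62 on scramble replicate 1 and shACOT12 replicates 1 and 2. SNAI1 read 11.77 there and 10.66, 10.52 and 10.92 on the others, and BHLHE40 11.28 against 9.02, 9.21 and 9.78. Their fold changes of -0.57, -0.50 and -0.66 became -0.02, 0.06 and 0.47 without that array, and those of CCN2 and JUNB went from -0.40 and -0.47 to 0.10 and 0.02. Over the list, 10 of 14 targets were below 0 with all arrays and 5 of 14 without scramble replicate 2. Scramble replicate 2 was the highest array for 7 of 14 targets, for 26.0% of the members and for 23.9% of all genes. PMEPA1, another target, was lowest there, at 5.32. The share of all genes at least 0.5 higher on that array was not counted, and the cause was not tested. FN1, fibronectin, differed by -0.57 without overlap, from 17.10 and 17.29 in scramble and 16.58 and 16.68 in shACOT12 cells (unadjusted p = 0.0804, adjusted p = 1, limma). These values come from the brighter of 2 FN1 probes, and the other is not given here.

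**Figure D5:**
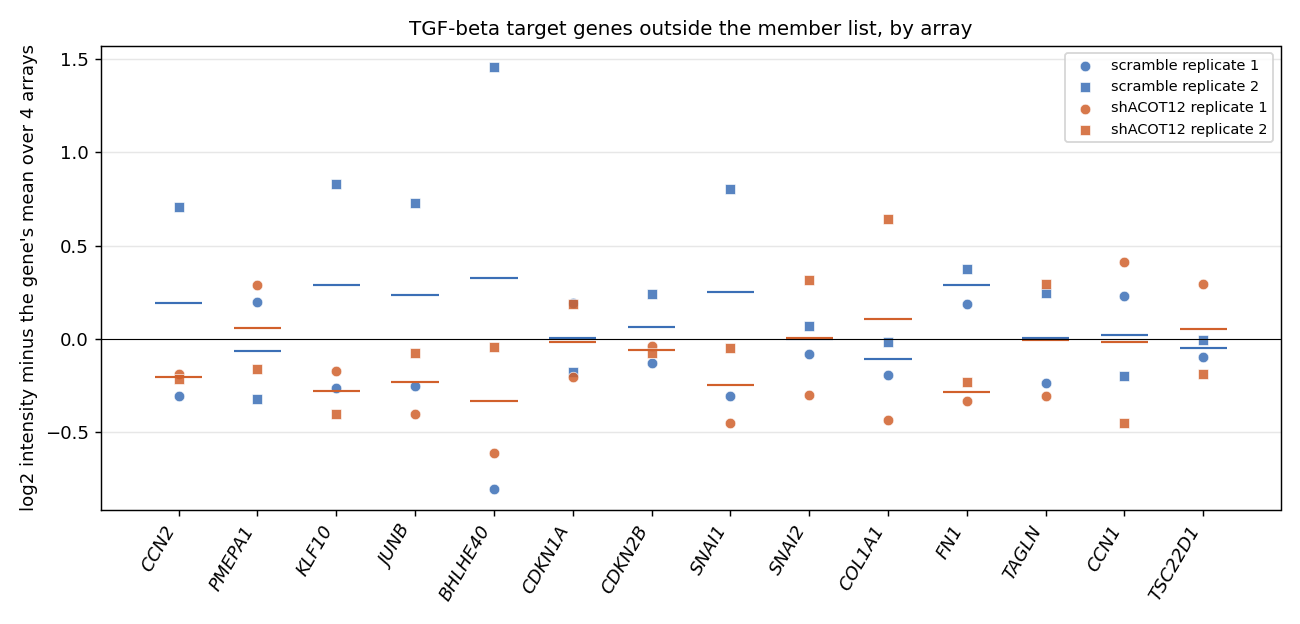
Log2 intensity of 14 TGF-beta target genes outside the member list (horizontal axis), as the difference from each gene's mean over the 4 arrays (vertical axis); circles are replicate 1, squares replicate 2, horizontal lines group means. CCN2, KLF10, JUNB, BHLHE40 and SNAI1 stand out on scramble replicate 2, at least 0.5 above their other 3 arrays. These genes were picked after their values were seen, and the share of all genes doing so was not counted.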

How the data were processed

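Total RNA of 4 Huh7 samples was amplified and coupled to Cy5, in a single colour, as the labels' protocols state. The deposited values are intensities on a linear scale; how the authors scanned, background-corrected and normalized them is not given in the sources used here. Values below 0 occur among them. Intensities under 1 were set to 1 and converted to log2. Because the log2 medians of the arrays as deposited differed by 0.46, more than 0.1, the arrays were quantile normalized, which would hide a shift of most genes. Probes were named from the platform's annotation (25893 of 28264 had a symbol), and each gene was read from its probe with the highest mean.

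The 2 groups were fitted in limma 3.58.1 under R 4.3.3 (lmFit, eBayes; 2 residual degrees of freedom, prior 4.69), without a replicate block, and p-values were adjusted over 19090 genes by the Benjamini-Hochberg method. The fit was tested on simulated data, drawn without any pairing of arrays and with changes of 2-fold or more put in. How it handles smaller changes or paired arrays was not tested. No detection flags were used, so a dim probe has no mark of its own.

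The members, the further pathway genes and the alternatives were chosen with earlier results of these data known, so lists are given by counts and medians with no list test. By rule, members with an unadjusted p under 0.05 or a 2-fold change (there were none), the 2 brightest of each role, and pathway genes with an unadjusted p under 0.05 were named; the members whose arrays did not overlap, the 5 targets apart on scramble replicate 2, FN1 and the genes given in passing were picked after their values were seen. Alternatives were other scalings, floors, probe rules and priors, leaving out dim genes, a replicate block, and leaving out each array.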

Additional observations from a re-analysis of the deposited data

How the results depend on the processing

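No member and no further pathway gene passed the adjusted threshold under any alternative run. Members under an unadjusted p of 0.05 in limma numbered 0 of 50, but 4 (FSTL1, FSTL3, SMAD5, SMURF1) with the floor at the 20th percentile, 1 (INHBA) with the replicate block, and 0 to 1 with an array left out (TGFB3 without shACOT12 replicate 1, INHBA without shACOT12 replicate 2). The calls over all genes went from 1 to 25 with the block, 3 with an intensity trend and 0 as deposited, with 75th percentile scaling, cyclic loess or the higher floor, and were 0 to 4 with an array left out, and the genes under an unadjusted p of 0.05 from 336 to 157 as deposited, 180 with 75th percentile scaling, 672 with the higher floor, 704 with the block and 251 to 767 with an array left out; deviations of same-numbered arrays correlated at 0.183 over genes, and with 2 pairs the numbers are not taken as a pairing. Members without overlap numbered 15, but 9 as deposited (18.0%, against 19.2% of all genes), 8 with 75th percentile scaling (16.0%, against 19.7%), 27 of 80 probes by probe, and 28 to 36 with 3 arrays, where overlap is rarer by construction. The members' share without overlap stayed above that of all genes or probes under every other alternative that kept all arrays. With 3 arrays it was below that of all genes without shACOT12 replicate 2 (32 of 50, against 65.3%). It was above without scramble replicate 1 (36 of 50, against 58.5%). The same held without scramble replicate 2 (28 of 50, against 52.9%) and without shACOT12 replicate 1 (34 of 50, against 65.0%). Members changed 2-fold numbered 1 as deposited (INHBA, with 384 of 19090 genes in all) and 1 with 75th percentile scaling (INHBA, with 385). By probe the number was 1 (BMP7), with 479 of 25893 named probes in all. With an array left out, INHBA, ACVR2B or TGFB3 reached 2-fold. The members' median of -0.0074 moved to 0.03 as deposited, 0.059 with 75th percentile scaling, 0.011 with cyclic loess, 0.063 with probes averaged, 0.057 by probe and 0.021 to 0.061 with an array left out. With values as deposited the fold changes of BMP2, SMAD4 and TGFBI turned to 0.03, 0.03 and 0.035, with 75th percentile scaling to 0.059, 0.059 and 0.064, and TGFBI with cyclic loess to 0.0073. Leaving out each array gave -0.80 to 0.0039 for ACOT12, -0.18 to 0.17 for BMP2, -0.041 to 0.61 for LTBP2, -0.20 to 0.74 for FST, -0.64 to 0.50 for CHRD, -0.36 to 0.045 for BAMBI, -0.21 to 0.18 for SMAD4, -0.24 to 0.50 for SKI, -0.37 to 0.78 for SKIL, -0.26 to 0.23 for TGFBI, -0.90 to 0.10 for CCN2, -0.97 to 0.019 for JUNB, -1.79 to 0.47 for BHLHE40 and -1.05 to 0.058 for SNAI1. The other 24 of 38 named genes kept their sign under every alternative that gave a value, but for 13 of these 24 leaving out 1 array shrank the difference by over 1.5 times, among them SMAD3 (0.24 to 0.023), TGFBR2 (-0.21 to -0.037), LTBP1 (0.091 to 0.015), ACVR2A (0.36 to 0.098), ID2 (-0.16 to -0.054) and BMPR2 (0.37 to 0.16). With an array left out, the lone array of a group is assumed to vary like the other group. The cause of these moves was not tested.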
